A study of Mus musculus with 18 samples.

Results

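Ovulated mouse oocytes arrested at metaphase II (MII) were compared between females whose oocytes lack VPS34 and floxed controls, in 6 of the 18 samples of the series: 3 libraries from conditional knockout oocytes (cKO, named ZcKO in the labels) and 3 from control oocytes. Both groups carry the floxed alleles of Vps34, the gene now called Pik3c3. The cKO females carry in addition the transgene Zp3-Cre, driven by a promoter of growing oocytes, while the controls carry the floxed alleles without Cre. Cumulus cells, which do not express Zp3, are not a target of the deletion. All females were 5 weeks old, oocytes were taken 14 h after an ovulatory dose of hCG, and each library pooled 5 oocytes with ERCC spike-in RNAs. The other 12 samples are oocytes at the germinal vesicle (GV) stage and 2-cell embryos, of which the 6 GV libraries serve below for the test of a difference between stages. These GV oocytes were taken 46 h after the hormone PMSG, with no hCG time in the labels. Stage and hormone treatment therefore differ together in that test. No label ties a library to an animal, so p-values measure the spread between these libraries, whatever its source.

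VPS34 is the class III phosphatidylinositol 3-kinase. It makes PI3P on endosomes and on forming autophagosomes, in one complex with ATG14 and another with UVRAG, both built on Beclin 1 and the regulatory subunit VPS15. A fully grown oocyte is transcriptionally silent, and maturation from GV to MII runs on stored mRNA that is translated, deadenylated or degraded on schedule. In these pools, fewer cells of a type and less RNA per cell cannot be told apart.

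Gene counts were 3668109, 3312764 and 3682573 in control 1, 2 and 3 and 2609783, 3303644 and 2805626 in cKO 1, 2 and 3. Every control thus lay above every cKO library in depth, narrowly for control 2 and cKO 2. The log2 difference was -0.30 (exact permutation test, two-sided, p = 0.1, the smallest possible with n = 3 per group). Spike-in counts lay between 1286356 and 1983318. Oocyte markers matched the label: 11 of 12 were tested, with Gdf9 between 2921 and 9898 CPM (read counts relative to the library total, per the usual counts-per-million scale), and only Figla, at 0 to 5 counts, was too low. Control 1 stood apart on the first principal component (42.0% of the variance, score -49.5, against 31.3 for cKO 1 at the other end). On the second component (25.1%) cKO 3 stood apart from the rest. Libraries of the same genotype correlated with a median Pearson r of 0.966, and libraries of different genotypes with 0.960, over the tested genes. Blood and immune markers summed to between 6.94 and 18.5 CPM, highest in cKO 3, with the globin genes at 0 counts. Tyrobp and Fcer1g had 9 and 10 counts in cKO 3 and 0 elsewhere. Ptprc had 5 counts in cKO 3, 2 in cKO 1 and 0 elsewhere. H2-Aa went the other way, with 8, 6 and 15 counts in control and 4, 3 and 1 in cKO. Oviduct markers summed to between 139 and 162 CPM, mostly from Cdh1, which oocytes express.

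Cumulus RNA differed more between libraries than between genotypes. The cumulus cells around an ovulated egg make a hyaluronan matrix with Has2, Ptgs2, Tnfaip6 and Ptx3, and summed CPM over 53 cumulus and granulosa markers was 509, 894 and 607 in control 1, 2 and 3 and 1785, 695 and 462 in cKO 1, 2 and 3. Serpine2, which stood at 797 to 1354 CPM in every library, was left out of the sum. The cKO 1 library held the most of 33 of the 47 markers with a count, and the other libraries overlapped. On the log2 scale the genotypes differed by 0.35 (exact permutation test, two-sided, p = 0.7, n = 3 per group, where 0.1 is the smallest p possible), and without cKO 1 the difference was -0.20. With Serpine2 in the sum it was 0.03, and per ERCC count 0.15. The gap junction gene Gja1 was at 20.7, 76.4 and 46.2 CPM in control and at 231, 85.1 and 40.6 CPM in cKO. Inha, the inhibin alpha subunit, was at 6.27, 51.9 and 16.02 CPM in control and at 67.4, 7.26 and 6.42 CPM in cKO, and Foxl2 had at most 2 counts in any library.

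**Figure D1:**
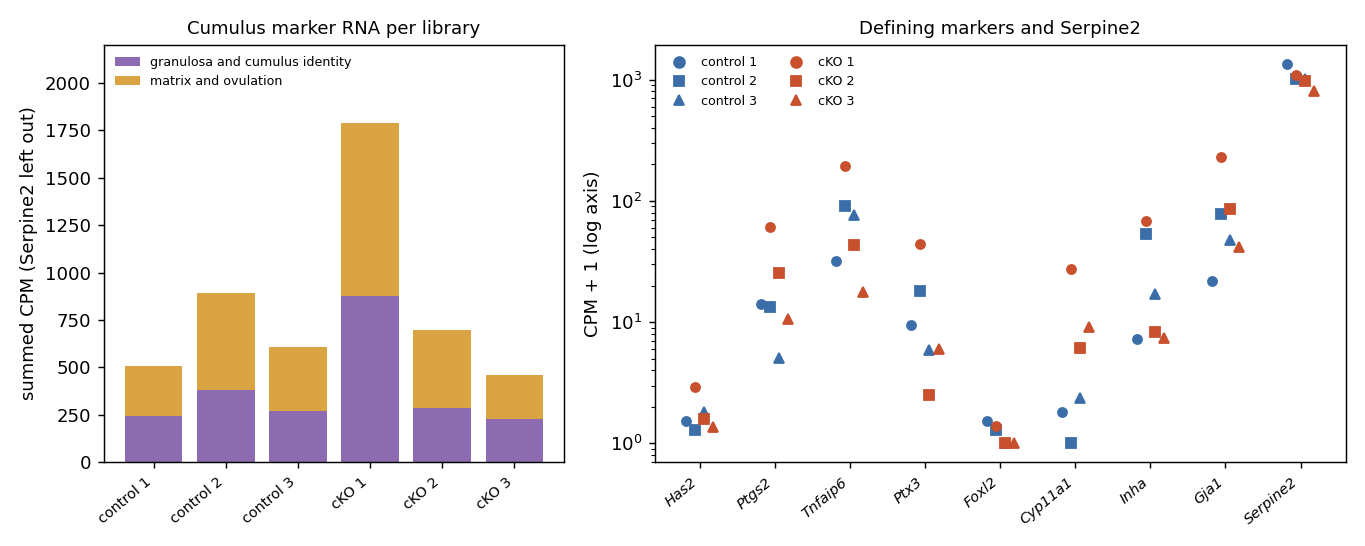
Left, stacked bars give the summed CPM of granulosa and cumulus identity genes and of matrix and ovulation genes in each of the 6 MII libraries, without Serpine2. Right, points give CPM + 1 on a log axis for 8 defining markers and Serpine2; cKO 1 reached 1785 CPM in the sum and lies highest for the defining markers other than Foxl2, which had at most 2 counts.

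The spike-ins give a measure of mRNA relative to a fixed amount of added RNA. Gene counts per ERCC count were 1.85, 2.31 and 2.42 in control and 2.03, 2.21 and 1.51 in cKO oocytes. The values overlapped, with means of 2.19 ± 0.302 (SD) and 1.92 ± 0.363, and the log2 difference was -0.20 (exact permutation test, two-sided, p = 0.5, n = 3 per group).

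Pik3c3 itself checks the labels. The gene lies at chr18:30272747-30348126 on the plus strand of mm10, and its counts cover the whole gene, deleted part and remainder alike. Control libraries held 39, 71 and 63 counts (10.6, 21.4 and 17.1 CPM) and cKO libraries 14, 8 and 9 (5.36, 2.42 and 3.21 CPM). The groups did not overlap, and the cKO mean was 4.57-fold lower (log2 fold change -2.19, SE 0.39). Over all genes this did not pass the threshold of 0.05 (adjusted p = 0.530 in edgeR), while DESeq2 gave an adjusted p of 0.0509. In GV oocytes the log2 fold change was -3.97 (SE 0.32), and the difference between the stages, 1.76 (SE 0.53), did not pass (adjusted p = 0.875, edgeR interaction).

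Across all genes the comparison gave no edgeR call: 0 of 9677 tested genes (0%) had an adjusted p under 0.05, and 0.530 was the smallest. An unadjusted p under 0.05 was reached by 872 genes (9.01%), with 345 higher in cKO (3.57%) and 527 lower (5.45%). DESeq2 called 1 gene of 22571 (0.00443%), Cyp11a1, and had 779 genes at an unadjusted p under 0.05. On the genes that edgeR tested, a setting chosen after seeing the data, DESeq2 called 4 (0.0413%), which were Cyp11a1, Meioc, Pik3c3 and Astl. The median log2 fold change of the tested genes was 0.02. Scaling by the ERCC totals moved the median to -0.15, and the 399 genes under 0.05 were split into 29 higher and 370 lower, 7.27% higher against 39.6%. Left-out libraries changed the count, which was 1500 without control 2, 529 without control 3 and 527 without cKO 3, with 0 calls each time. Of the 872 genes, 51 higher and 130 lower kept an unadjusted p under 0.05 with any 1 of the 6 libraries left out. The groups did not overlap for 793 genes in the higher direction (8.19%) and 733 in the lower (7.57%).

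**Figure D2:**
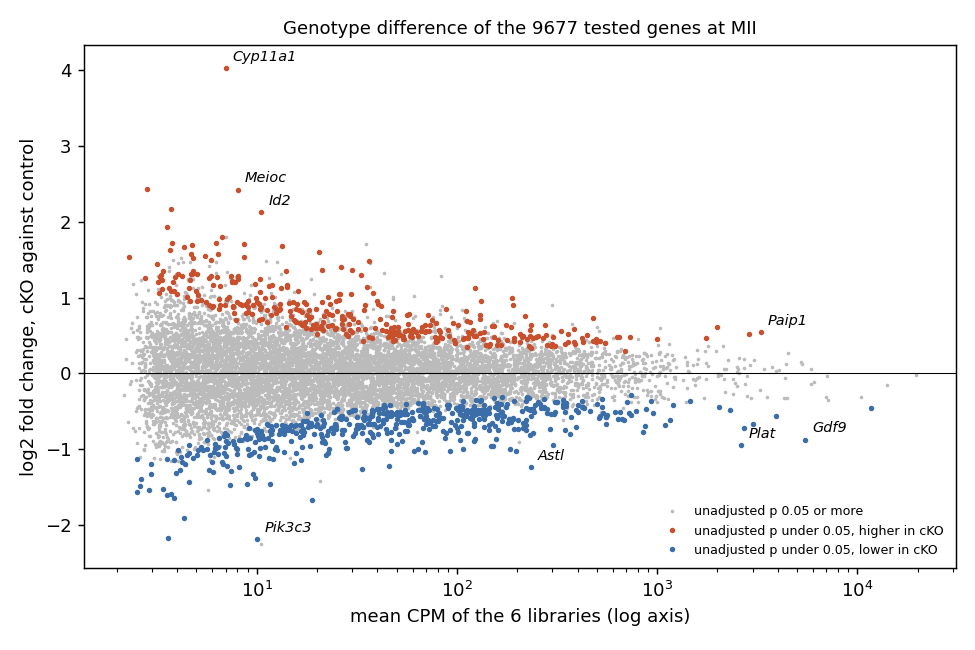
Each point is one of the 9677 tested genes, with its mean CPM over the 6 MII libraries on a log axis and its log2 fold change, cKO against control; coloured points have an unadjusted p under 0.05 (345 higher, 527 lower). Pik3c3 at -2.19 and Cyp11a1 at 4.03 lie at the edges of the cloud, and Gdf9 and Plat are the abundant genes on its lower side.

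Without the filter on low counts edgeR called 96 of 22572 genes (0.425%), 28 higher and 68 lower. Of these, 91 were also tested with the filter, where each had an unadjusted p under 0.05, and 60 kept such a p with any 1 library left out. Some of the 96 calls rest on few libraries. Ly6d was at 7.66 CPM in cKO 1, 7.13 CPM in cKO 3 and 0 elsewhere. Ccl9 and Ctss were at 8.91 and 8.20 CPM in cKO 3 and 0 elsewhere. Prr18 was at 5.998 CPM in control 1, 3.32 CPM in control 2 and 0 elsewhere. The calls without the filter also include Cyp11a1, Astl, Plat, Mt1, Pik3c3, Gdf9, Meioc and Id2. The values of these and of the other named genes follow, and since none passed the main test they are given as levels.

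Cyp11a1 encodes the side-chain cleavage enzyme that starts steroid synthesis in granulosa cells (chr9:58006411-58027023). It was at 0.818, 0 and 1.36 CPM in control 1, 2 and 3 and at 26.4, 5.15 and 8.20 CPM in cKO 1, 2 and 3, which is 3, 0 and 5 counts against 69, 17 and 23. The groups did not overlap, but the highest value was in cKO 1, the library with the most cumulus marker RNA, and the log2 fold change of 4.03 (SE 0.84) was 3.07 without that library (DESeq2 adjusted p = 0.0104 with all 6). Other steroid genes did not separate the genotypes: Star was at 2.45, 8.75 and 2.44 CPM in control and 19.5, 13.0 and 1.07 CPM in cKO, and Hsd3b1 was at 38.7, 65.2 and 62.5 against 214, 24.5 and 48.5 CPM. With log2 cumulus marker CPM as a covariate the log2 fold change was 3.46, but Cyp11a1 is itself one of the markers in that sum. That fit therefore does not give the part of cumulus RNA in the Cyp11a1 difference, which was not tested.

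Meioc, a germ cell factor that sustains the meiotic prophase programme by acting on RNA with YTHDC2, stood higher in cKO (chr11:102663716-102682237). Its values were 2.18, 3.62 and 1.63 CPM in control and 8.05, 14.8 and 17.8 CPM in cKO. No cKO library overlapped the controls, the log2 fold change was 2.42 (SE 0.44, DESeq2 adjusted p = 0.0509), and it was 1.36 (SE 0.43) in GV oocytes. Id2, an inhibitor of basic helix-loop-helix factors, was at 2.45, 6.64 and 2.44 CPM in control and 29.5, 11.2 and 11.1 CPM in cKO (log2 2.13, SE 0.51), again with cKO 1 highest. Mt1, a metallothionein that binds zinc and copper, was at 8.45, 33.5 and 15.2 CPM in control and 54.0, 69.3 and 37.1 CPM in cKO (log2 1.48, SE 0.41). At GV the Mt1 difference was 4.01 (SE 0.94, unadjusted p = 0.00372 in edgeR). Meioc, Mt1 and Pik3c3 are among the 10 genes with an unadjusted p under 0.05 in the same direction at both stages. Genes under 0.05 at MII reached such a p at GV, in either direction, in 1.68% of cases, against 2.11% of all genes tested at both stages.

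Paip1, which binds the poly(A)-binding protein and promotes translation, was at 2265, 2867 and 2806 CPM in control and 3945, 3564 and 4274 CPM in cKO (1.46-fold, log2 0.54, SE 0.15). It is the most abundant of the 24 named genes. Pan3, the regulatory subunit of the PAN2 deadenylase, was at 261, 411 and 400 CPM in control and 548, 480 and 777 CPM in cKO (log2 0.73, SE 0.21, and 0.47 without cKO 3). Nufip2, an RNA-binding protein that interacts with FMRP, was at 75.2, 190 and 134 CPM in control and 239, 240 and 271 CPM in cKO (log2 0.90, SE 0.25). In each of the 3 genes the lowest cKO library lay above the highest control, and control 1 was lowest.

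Bmpr2, the type II receptor that also takes signals from GDF9 and BMP15, was at 146, 226 and 181 CPM in control and 278, 247 and 310 CPM in cKO (log2 0.57, SE 0.17). Msl2, a ubiquitin ligase of the MSL chromatin complex, was at 13.4, 30.2 and 22.5 CPM against 35.6, 39.1 and 71.6 CPM. Arhgap5 was at 3.82, 10.9 and 8.69 CPM against 29.5, 16.4 and 14.97 CPM. These groups were also separate, by narrow margins for Bmpr2 and Msl2. Rgn, the calcium-binding protein regucalcin, was at 33.3, 46.5 and 42.9 CPM against 61.7, 72.0 and 79.8 CPM (log2 0.77, SE 0.19), and the zinc finger gene Zfp709 was at 12.3, 22.9 and 22.0 CPM against 34.5, 31.2 and 53.8 CPM. Fold sizes of the higher genes ran from 1.46 for Paip1 to 16.3 for Cyp11a1.

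Astl (chr2:127338639-127357651) stood lower in cKO. It encodes ovastacin, the cortical granule protease that cleaves ZP2 after fertilization and so hardens the zona. Control libraries were at 462, 221 and 291 CPM and cKO libraries at 160, 156 and 114 CPM. The groups were separate and the cKO level was 2.36-fold lower (log2 -1.24, SE 0.28, DESeq2 adjusted p = 0.0509); without control 1, the highest library, the value was -0.82. Atg16l1 (chr1:87755870-87792428), whose protein joins the ATG5 and ATG12 conjugate to attach LC3 to membranes downstream of PI3P, was at 186, 145 and 144 CPM in control and 88.5, 103 and 77.0 CPM in cKO (log2 -0.87, SE 0.19). Each control lay above each cKO library.

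Psrc1, a spindle protein, was at 90.5, 83.6 and 84.7 CPM in control and 52.9, 52.97 and 36.0 CPM in cKO (log2 -0.91, SE 0.19). The control spread was small here, with an SD of 3.70 CPM around 86.3. Troap, a spindle-associated protein, was at 99.0, 64.3 and 80.7 CPM against 39.1, 53.6 and 31.0 CPM (log2 -1.03, SE 0.25). Mboat7, which puts arachidonate on lysophosphatidylinositol, was at 12, 9.36 and 11.1 CPM against 3.07, 4.54 and 4.28 CPM (log2 -1.47, SE 0.35). As a phosphatidylinositol-remodelling enzyme it works on the lipid that is the substrate of VPS34.

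The remaining lower genes have diverse roles. Med22, a Mediator subunit, was at 237, 140.4 and 205 CPM in control and 113, 122 and 73.8 CPM in cKO (log2 -0.97, SE 0.24). Aaas, the nucleoporin ALADIN, was at 72.5, 51.3 and 63.0 CPM against 38.3, 36.3 and 19.96 CPM. Kctd5, a substrate adaptor of cullin-3, was at 82.3, 56.5 and 57.6 CPM against 39.1, 41.2 and 26.0 CPM. In these 3 genes cKO 3 was lowest and control 1 highest. Abhd4, a lipid hydrolase, was at 157, 108 and 154 CPM against 77.0, 88.7 and 84.8 CPM. Aqp9, a channel for water and glycerol, was at 66.5, 51.0 and 63.5 CPM against 40.6, 36.9 and 23.9 CPM, and Gdpgp1, a GDP-glucose phosphorylase, was at 21.8, 11.2 and 17.9 CPM against 6.13, 7.57 and 5.35 CPM. The 24 named genes kept their direction and an unadjusted p under 0.05 with any 1 library left out, but they were chosen for separate groups and small p, so this describes the choice.

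**Figure D3:**
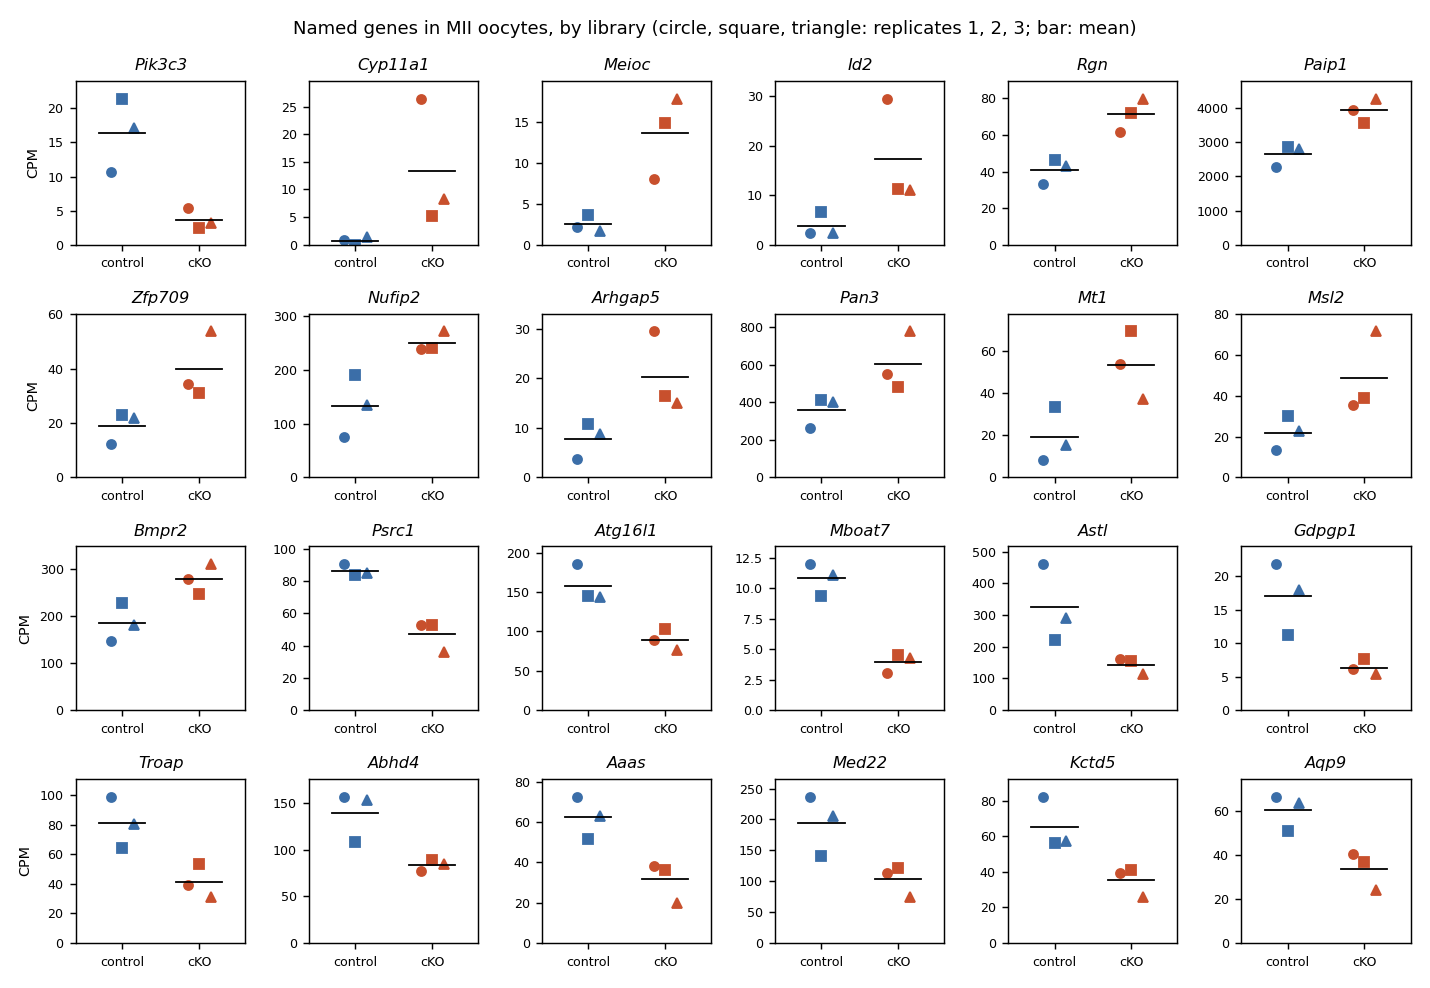
Each panel gives CPM in the 6 MII libraries for one named gene, controls left and cKO right, with circles, squares and triangles for replicates 1, 2 and 3 and a bar at the mean; vertical axes start at 0. Genes were chosen for groups that do not overlap, and control 1 or cKO 1 often lies farthest out, as for Astl (462 CPM) and Cyp11a1 (26.4 CPM).

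Genes that work with VPS34 were read next, from lists of known members. Of the VPS34 complexes, 10 of 12 genes were tested and 2 had an unadjusted p under 0.05, against 9.01% of all tested genes: the deleted gene Pik3c3 and Becn1, both lower. Becn1, the Beclin 1 scaffold, was at 99.8, 47.1 and 63.5 CPM in control and 54.8, 47.8 and 33.5 CPM in cKO, so the groups overlapped (log2 -0.69, SE 0.30, and -0.28 without control 1). Its partners showed no such p: Atg14 was at 0.26 (SE 0.19, and 0.12 without cKO 3), Uvrag at 0.17 (SE 0.18, and 0.03 without control 1), Pik3r4, which encodes VPS15, at 0.11 (SE 0.22) and Rubcn, a negative regulator, at -0.21 (SE 0.27), as log2 fold changes.

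Among 21 tested autophagy core genes 1 was higher and 1 lower at an unadjusted p under 0.05, beside 3.57% and 5.45% of all tested genes. The same shares stand beside the mitophagy and endosome counts that follow, and no difference from them was tested. The lower gene was Atg16l1. Atg10, the conjugating enzyme for ATG12, was higher, at 6.82, 16.6 and 10.1 CPM in control and 17.2, 21.8 and 22.1 CPM in cKO (log2 0.85, SE 0.32). Of 23 mitophagy genes the outer membrane channel gene Vdac1 alone had an unadjusted p under 0.05, at log2 -0.50 (SE 0.21). Of 24 RAB5 and RAB7 endosome genes it was Vps16, a subunit of the tethering complexes CORVET and HOPS, at 1.09, 1.21 and 2.44 CPM in control and 5.36, 3.03 and 3.56 CPM in cKO. These are low levels, and the p was under 0.05 in 1 of the 6 fits with a library left out. The median of this list was 0.21, with 15 of 24 members positive, against 0.02 and 51.9% over all tested genes. The groups were separate for 5 of the 24 members in the higher direction and 0 in the lower. Over all tested genes these shares were 8.19% and 7.57%, and no difference from them was tested.

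Snx6, a sorting nexin that works with Retromer, was the member of 21 Retromer and sorting nexin genes under 0.05, beside 9.01% of all tested genes. It was at 94.6, 216 and 173 CPM in control and 248, 252 and 324 CPM in cKO (log2 0.75, SE 0.25, unadjusted p = 0.0111 in edgeR). The list as a group did not share this, with a median of -0.03 and 9 of 21 members positive. Of 34 lysosome genes 1 was higher and 3 lower at that p, near the 9.01% of all tested genes. The proton pump subunits went both ways: Atp6v1b2 was at 209, 144 and 202 CPM in control against 127, 142 and 121 CPM in cKO, and Atp6v1e1 was at 32.4, 73.1 and 66.5 CPM against 89.3, 84.8 and 96.6 CPM. The cathepsin gene Ctsd was at 12, 12.7 and 8.96 CPM against 6.51, 5.45 and 7.13 CPM.

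Oocyte lists are small, so their counts at an unadjusted p under 0.05 stand beside the shares over all 9677 tested genes, 5.45% lower and 3.57% higher, and no difference from those shares was tested. Of 16 egg coat and egg surface genes 3 were lower and 0 higher at that p. Besides Astl these were Plat, the tissue plasminogen activator whose stored mRNA is translated at maturation, and Zp1, a zona pellucida glycoprotein. Plat was at 4596, 2319 and 3319 CPM in control and 1993, 1961 and 1538 CPM in cKO (log2 -0.95, SE 0.25, and -0.61 without control 1). Zp1 was at 76.9, 83.0 and 85.0 CPM in control and 49.8, 61.1 and 54.2 CPM in cKO (log2 -0.60, SE 0.17, and -0.59 without control 1). The list's median was 0.05, and Zp2 and Zp3 overlapped between the genotypes.

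Of 10 oocyte secreted factor and follicle dialogue genes 2 were lower and 0 higher, beside the same shares of 5.45% and 3.57%. Gdf9, the growth factor with which the oocyte drives cumulus expansion, was at 9898, 5037 and 5973 CPM in control and 4253, 4690 and 2921 CPM in cKO (log2 -0.88, SE 0.28). Control 1 was the highest library, and the value was -0.47 without it. Its partner Bmp15 overlapped, at 2704, 3937 and 4209 CPM in control and 4095, 3754 and 3853 CPM in cKO. Gja4, the oocyte's connexin 37, was at 33.8, 38.9 and 44.5 CPM in control against 28.0, 30.3 and 16.4 CPM in cKO, separate in all 6 libraries.

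Of 40 maternal effect genes 4 were lower and 0 higher, against 5.45% lower and 3.57% higher over all tested genes. Tle6, a member of the subcortical maternal complex, was at 194, 218 and 195 CPM in control and 166, 159 and 98.4 CPM in cKO (log2 -0.56, SE 0.19). Zar1, which binds stored mRNA, was at 644, 652 and 667 CPM in control and 487, 583 and 281 CPM in cKO (log2 -0.58, SE 0.22, and -0.35 without cKO 3), with controls close together and cKO 3 lowest. Oog1 was at log2 -0.52 (SE 0.17) and Hsf1, the heat shock factor, at -0.56 (SE 0.21). Nlrp5, another member of the subcortical complex, went the other way without passing, at 366, 438 and 429 CPM in control and 466, 460 and 915 CPM in cKO, with a log2 fold change of 0.56 that was 0.11 without cKO 3.

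The list for metaphase II arrest and the anaphase-promoting complex had 5 of 41 tested members lower and 0 higher at an unadjusted p under 0.05, against 5.45% lower and 3.57% higher over all tested genes. Mos, the kinase that starts the arrest through MAP kinase, was at 1174, 1084 and 1094 CPM in control and 861, 932 and 602 CPM in cKO (log2 -0.53, SE 0.17), with separate groups. Cdc20, the activator of the complex, was at 366, 188 and 236 CPM against 158, 220 and 120 CPM, with overlap (log2 -0.72, and -0.34 without control 1). Cdc23, a subunit of the complex, was at 8.72, 5.74 and 13.0 CPM against 4.98, 3.33 and 4.28 CPM, and Ppp2r1a, a scaffold of protein phosphatase 2A, was at log2 -0.49 (SE 0.19) and at -0.27 without control 1. The list's median was -0.09, with 25 of 41 negative.

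Among 46 spindle and checkpoint genes 7 were lower and 0 higher, beside shares of 5.45% and 3.57% over all tested genes. The list's median was -0.01 and 23 lay on each side of 0. Plk1, the polo-like kinase, was at 127, 129.8 and 132 CPM in control and 98.5, 100.8 and 80.6 CPM in cKO (log2 -0.51, SE 0.16). Bub3, a checkpoint protein, was at 169, 164 and 165 CPM against 124, 141 and 108 CPM (log2 -0.45, SE 0.16). Kif20a, a kinesin of cytokinesis, was at 132, 109 and 102 CPM against 85.8, 77.2 and 47.1 CPM, and Tubb4b, a beta-tubulin, was at 46.6, 50.7 and 56.2 CPM against 36.0, 39.96 and 26.7 CPM. In these 4 genes every cKO library was below every control and cKO 3 was lowest. The others were the tubulin genes Tubb3 and Tubg1 and the kinase gene Aurkc.

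Maternal mRNA decay genes lay on both sides. Beside Pan3, the RNA helicase Ddx6 was higher, at 7.09, 15.4 and 12.5 CPM in control and 29.1, 22.1 and 17.1 CPM in cKO (log2 0.94, SE 0.32). Cnot8, a deadenylase subunit of CCR4-NOT, was at 397, 205 and 294 CPM in control and 189, 209 and 141 CPM in cKO, with overlap (log2 -0.79, SE 0.25, and -0.46 without control 1). Pabpn1l, an oocyte poly(A)-binding adaptor of maternal mRNA clearance, was at 606, 221 and 355 CPM against 204, 239 and 194 CPM (log2 -0.95, SE 0.35, and -0.42 without control 1). The list held 3 higher and 2 lower of 39, beside shares of 3.57% and 5.45% over all tested genes. The proteasome list held 3 higher and 3 lower of 31, beside the same shares. No difference from these shares was tested for either list. Psmb3 was at log2 -0.70 (SE 0.20) and Psmc1 at 0.57 (SE 0.23, and 0.38 without control 1).

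Ribosomal protein genes had the highest median of the lists with 20 or more tested members, 0.33, with 62 of 72 positive (86.1% against 51.9% of all tested genes). They were counted without a known rule for shared reads and have many pseudogenes, so single members are uncertain. At an unadjusted p under 0.05 there were 3 higher and 0 lower of the 72, near the 3.57% higher of all tested genes: Rps3a1, at 10.1, 29.0 and 17.7 CPM in control and 75.9, 42.7 and 23.5 CPM in cKO, Rpl37a at log2 0.84 (SE 0.35, and 0.54 without cKO 1) and Rpl17 at 0.46 (SE 0.20, and 0.295 without control 1). The list's level followed the library more than the genotype, with a median log2 deviation from the 6-library mean of -0.80, 0.52 and -0.24 in control and 0.93, -0.01 and -0.30 in cKO. Its highest and lowest values lie in cKO 1 and control 1, and it was -0.08 without cKO 1, 0.79 without control 2 and 0.01 with log2 cumulus marker CPM as a covariate.

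Nuclear genes for oxidative phosphorylation had a median of 0.20 with 52 of 70 positive, and 0.03 without cKO 1. At the unadjusted p 5 of the 70 were higher, against 3.57% of all tested genes, among them the complex I subunits Ndufa5 at 1.15 (SE 0.45) and Ndufa4 at 0.43 (SE 0.18), and Atp5b, the catalytic ATP synthase subunit, was lower at -0.41 (SE 0.18). Without cKO 3 Ndufa4 was at 0.23 and Atp5b at -0.23. The 13 mitochondrially encoded transcripts showed no p under 0.05 and a median of 0.02. The 2 cumulus lists had medians of 0.44 (14 genes) and 0.66 (15 genes), which were both -0.14 without cKO 1. With cumulus marker CPM as a covariate 0 genes were called and 919 had an unadjusted p under 0.05, of which 700 are among the 872 and in the same direction.

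Stress and metabolic lists are small, and their counts at an unadjusted p under 0.05 stand beside 3.57% higher and 5.45% lower over all tested genes. No difference from those shares was tested. Of 20 p53 and apoptosis genes 1 was higher and 1 lower. Trp53, the p53 gene, was at 78.2, 75.8 and 90.4 CPM in control and 60.5, 67.5 and 36.7 CPM in cKO (log2 -0.61, SE 0.22), and Gadd45a, a p53 target, was at 5.73, 8.15 and 4.35 CPM against 16.1, 11.2 and 8.91 CPM (log2 0.95, SE 0.36). Of 22 genes of the integrated and ER stress response the mitochondrial folate enzyme gene Mthfd2 was lower, at log2 -0.38 (SE 0.14). None of 20 antioxidant genes was under 0.05. Of 20 glycolysis and pyruvate genes 2 were lower, among them Ldhb, a lactate dehydrogenase subunit, at 1704, 1715 and 1421 CPM in control and 1352, 1274 and 1241 CPM in cKO (log2 -0.36, SE 0.15).

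**Figure D4:**
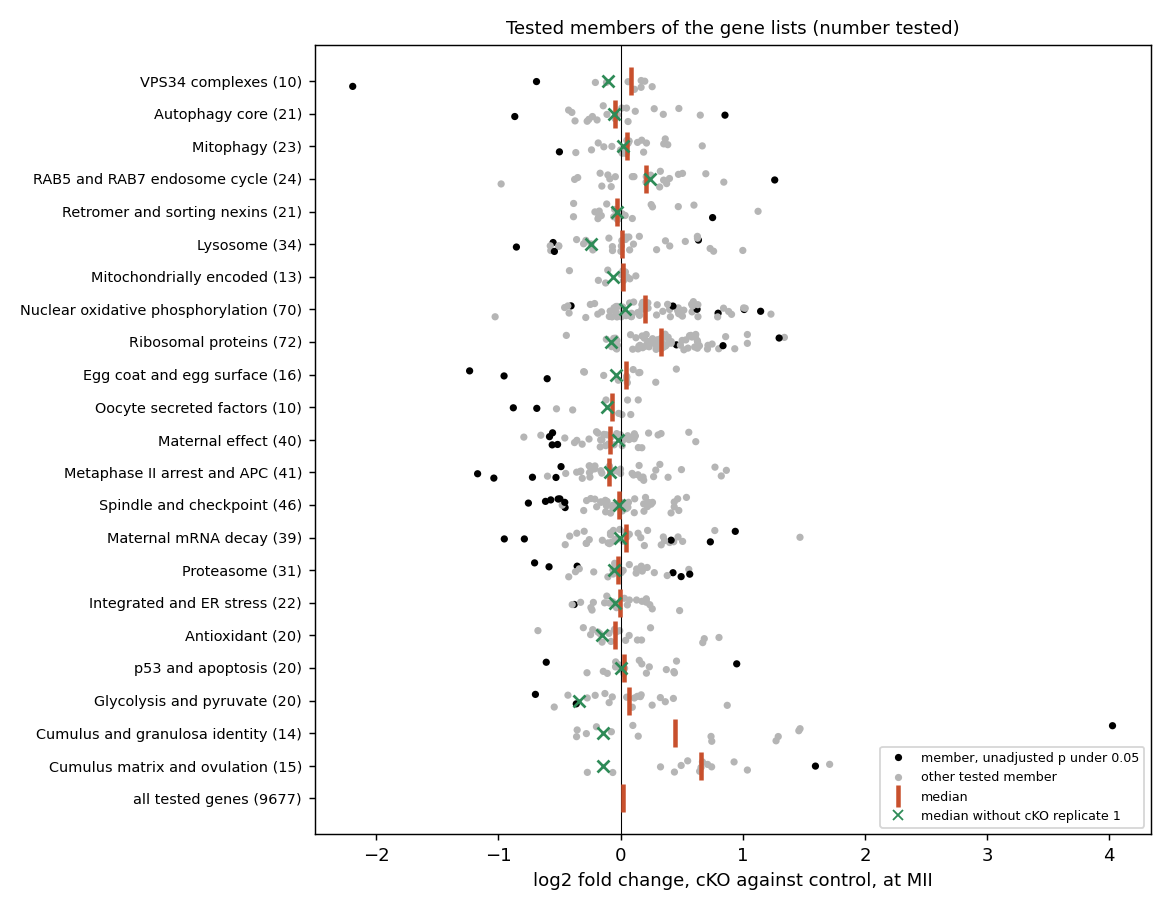
Each row is a gene list with at least 10 tested members, points are its members' log2 fold changes at MII (black for an unadjusted p under 0.05), and bars give the median. Green crosses give the median without cKO replicate 1, which takes the ribosomal list from 0.33 to -0.08 and both cumulus lists to -0.14, while the spindle list, with 7 black points below 0, keeps a median near 0.

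The genes on either side also differed in their transcripts, a pattern read after the values were seen. Protein-coding genes lower in cKO at an unadjusted p under 0.05 had a median transcript GC content of 52.2% and a median length of 2292 nt (492 genes), those higher had 45.1% and 4178 nt (316 genes), and the remaining 7860 genes had 48.4% and 3203 nt. In 5 equal groups by GC content, from group 1 (lowest) to group 5 (highest), the median log2 fold change went from 0.12 to -0.16, and the number of lower genes went from 33 to 167 while that of higher genes went from 120 to 23. From group 1 to group 5 every control library rose and every cKO library fell, but the size differed between libraries of 1 genotype. Control 1 went from -0.20 in group 1 to 0.09 in group 5, control 2 from 0.02 to 0.08 and control 3 from -0.003 to 0.08. In cKO 3 the values went from 0.06 to -0.15 and in cKO 1 from 0.11 to -0.05. The cKO 2 library was nearly level, at 0.0325 and 0.0291, with 0.0574 in group 4. When the GC trend of each library was removed, 792 genes had an unadjusted p under 0.05 (300 higher, 492 lower), of which 644 are among the 872 and in the same direction. The spindle list then had 5 lower, the arrest list 3 and the maternal effect list 2, each with 0 higher.

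**Figure D5:**
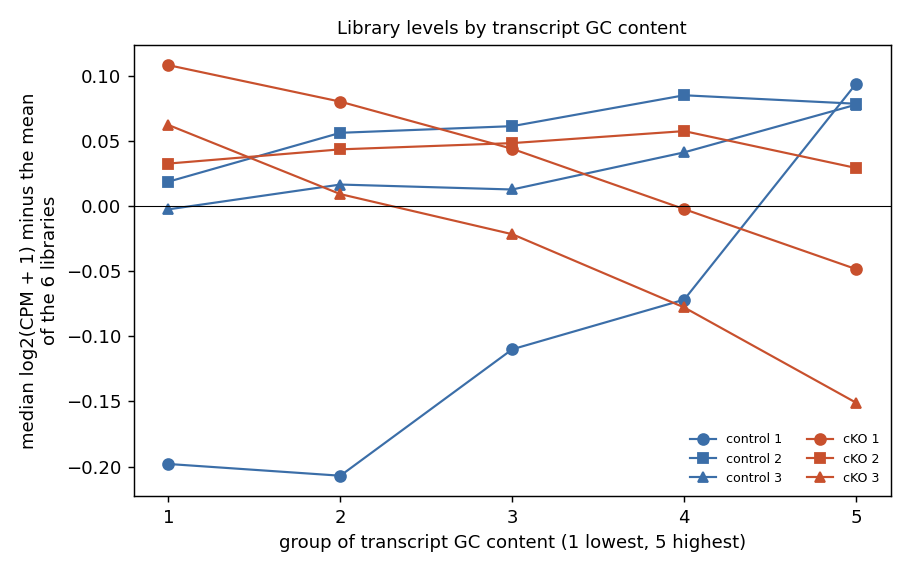
Lines give, for each MII library, the median of log2(CPM + 1) minus the 6-library mean over protein-coding genes in 5 equal groups of transcript GC content. Control 1 goes from -0.20 to 0.09 and cKO 3 goes from 0.06 to -0.15, the steepest lines, while cKO 2 stays level.

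Stored oocyte mRNAs are controlled through their 3′ UTR ends, where CPEB binds U-rich elements and sets the length of the poly(A) tail, from which Smart-seq2 primes. Matches to the letters TTTTAA or TTTTAT were searched near these ends. Of the higher named genes, Id2, Paip1 and Pan3 have a match and the others have none. Of the lower named genes, Psrc1, Atg16l1, Abhd4 and Kctd5 have a match. Pik3c3, Astl, Mboat7, Gdpgp1, Troap, Med22 and Aqp9 have none, and Aaas was not searched. Gdf9, Mos, Pabpn1l and Plat, all lower, have a match and were picked after their values were seen. For these 4 genes 1 site each is shown from the GENCODE M21 transcript (mm10), the match in capitals.
Gdf9, chr11:53437854-53437883, plus strand: agagtgctgtggTTTTATgtgacggaagaa
Mos, chr4:3870719-3870748, minus strand: ctctgtttatttTTTTAAagaagtaaggat
Pabpn1l, chr8:122619518-122619547, minus strand: attctcgagtacTTTTAAagaaaaatagat
Plat, chr8:22782745-22782773, plus strand: gtatatttataTTTTAAtctattttagtt

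The elements TTTTAA and TTTTAT, searched on the sense strand in the last 100 nt of 3′ UTRs of at least 100 nt, occur in 34.5% of the 8261 genes with such a UTR. They occur in 206 of 471 lower genes (43.7%) and in 89 of 296 higher genes (30.1%). In GC group 4, 13.5% of genes with an element were lower against 6.56% of those without, and in GC group 5 13.0% against 8.67%. Over all genes the median log2 fold change was -0.01 with an element and 0.03 without. The libraries differed here too: in GC group 5 control 1 was at 0.22 with and 0.07 without and cKO 1 at -0.11 and -0.04, while cKO 2 was at 0.02 and 0.04. A match is only a match of letters, and binding of CPEB was not tested.

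Finally the genotype difference at MII was set beside that at GV, whose libraries are separate samples. In 1 fit of the 12 libraries the interaction was called for 1 of 11607 genes with edgeR (0.00862%) and for 3 with DESeq2 (0.0112%). The gene was Spopl, a cullin-3 adaptor (chr2:23506220-23572106). At GV it was at 25.7, 22.4 and 54.7 CPM in control and 3.11, 4.68 and 3.999 CPM in cKO, and at MII at 15.3, 19.0 and 26.9 CPM in control and 24.5, 24.5 and 21.03 CPM in cKO. The MII groups overlapped (log2 0.17, SE 0.25), and the stages differed by 3.32 on the log2 scale (SE 0.48, adjusted p = 0.0168, edgeR). Without cKO 2 or cKO 3 at MII, control 2 at MII, or cKO 1 or cKO 2 at GV the adjusted p lay between 0.0567 and 0.0758, and with ERCC totals it was 0.0899.

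Ccnd2, cyclin D2, and Manba, the lysosomal beta-mannosidase, were the further DESeq2 calls of the interaction (adjusted p = 0.0284 and 0.0118). The edgeR interaction test gave adjusted p = 0.505 and 0.355. At GV the mean of Ccnd2 was 110.3 CPM in control and 33.3 CPM in cKO. The GV mean of Manba was 47.1 CPM in control and 0.736 CPM in cKO. Ccnd2 was at 3.82, 3.32 and 1.09 CPM in control MII and 10.7, 2.42 and 3.56 CPM in cKO MII oocytes. Manba was at 0.818, 17.2 and 44.0 CPM in control MII and 39.9, 33.6 and 32.4 CPM in cKO MII, with the control libraries spread over the whole range. Neither gene separated the genotypes at MII. Over the 9088 genes tested at both stages 51.1% had the same direction, and of the 831 with an unadjusted p under 0.05 at MII 463 did. Of those 831, 14 (1.68%) also had an unadjusted p under 0.05 at GV, against 2.11% of the 9088 genes and 2.2% of all genes tested at GV. Hormad1, which sits on the axes of meiotic chromosomes, was one of the 10 that agreed in direction, at 21.8, 29.3 and 34.2 CPM in control MII and 18.01, 1.21 and 8.55 CPM in cKO MII (log2 -1.68, SE 0.64, and -2.58 without cKO 1).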

How the data were processed

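The authors deposited unnormalized whole-number counts of reads for each gene symbol, made from Smart-seq2 libraries per the labels' protocols. The submitters' processing notes name fastp, HISAT2, featureCounts and mm10, without versions. For annotation release, strand setting and multimapping rule the sources used here give nothing, so paralogs, pseudogenes and overlapping or antisense genes are uncertain. The letters C and T in column names were read as control and cKO. Another 6 columns match no label and were not used.

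ERCC rows were left out of library sizes and tests. The main test was edgeR 4.0.16 (R 4.3.3: TMM, filterByExpr, robust glmQLFit and glmQLFTest) on the 6 MII libraries, with Benjamini-Hochberg adjustment and a threshold of 0.05. SE is the log2 fold change over the root of F. DESeq2 1.42.0, other scalings, filters, covariates and each library left out were alternatives. CPM is scaled to each library's gene total, without TMM. Sums and ratios were compared by exact permutation tests. Same-numbered libraries were checked for pairing and did not deviate together. The code was tested on simulated data. GC, length and 3′ UTRs come from GENCODE M21 transcripts, matched by symbol for 9542 of 9677 genes; GC offsets use lowess with a span of 0.3. The counts carry no molecular identifiers, so they count reads, and the gene tests use the spread between libraries.

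Named were Pik3c3, genes called by edgeR or DESeq2, the 12 with the smallest p in each direction among genes with separate groups, a mean of 10 CPM or more in the higher group and no predicted symbol, in each of 25 lists the 4 members with the smallest p and the 2 most abundant, of which the text gives a selection, and genes called in the interaction. Members and lists were chosen with earlier results of these data known.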

Additional observations from a re-analysis of the deposited data

Results flagged for a closer look

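Spopl, a cullin-3 adaptor gene, differed between stages in its genotype difference: the MII difference minus the GV difference was 3.32 on the log2 scale (SE 0.48, adjusted p = 0.0168, edgeR interaction in 1 fit of 12 libraries). The 3 cKO GV libraries were at 3.11 to 4.68 CPM and the 3 control GV libraries at 22.4 to 54.7 CPM, while the MII libraries of both genotypes lay between 15.3 and 26.9 CPM. Groups of 3 were not searched for single outlying libraries.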

How the results depend on the processing

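The count of 0 calls at MII held under RLE scaling, ERCC totals, the filter of 10 CPM, the joint fit, the covariate, no robust estimation and each library left out. It was 1 with DESeq2, 96 without the filter and 4 with DESeq2 on the filtered genes, an alternative added after seeing the data, as were the GC offsets (0 calls). The count at an unadjusted p under 0.05 was 399 with ERCC totals and 1625 without the filter, and lay between 527 and 1500 with 1 library left out. Pik3c3 stayed lower in every setting run, between -2.54 and -1.94, with an adjusted p between 0.000154 and 1; it passed at 0.000154 without the filter (log2 -2.22) and at 0.0142 in DESeq2 on the filtered genes (log2 -2.19). The interaction count was 3 with DESeq2, 3 with ERCC totals and between 0 and 3 with 1 library left out. The cumulus marker difference turned to -0.201 without cKO 1 and lay between -0.201 and 0.774 with any 1 library left out, and that of genes per ERCC count between -0.322 and -0.0412. Of 83 genes examined, 7 with overlapping groups changed sign, in 23 combinations of gene and setting, and the others kept theirs. With ERCC totals Uvrag was at -0.0117, Pik3r4 at -0.0611, Bmp15 at -0.115, Zp2 at -0.155 and Inha at -0.0754. With GC offsets Bmp15 was at -0.0175 and Zp2 at -0.00375, and with GC offsets and the replicate block Bmp15 was at -0.00546, Zp2 at -0.00149 and Inha at -0.222. With the cumulus covariate Hsd3b1 was at -0.0631 and Inha at -1.22, and with the replicate block Inha was at -0.411. With 1 library left out the values ran from -0.411 to 0.188 for Rubcn, -0.0427 to 0.198 for Bmp15, -0.0421 to 0.134 for Zp2, -0.0684 to 0.268 for Pik3r4, -0.61 to 1.21 for Hsd3b1 and -1.82 to 1.19 for Inha. Same-numbered libraries did not deviate together (r -0.204, -0.095 and 0.0127), and differently numbered ones lay between -0.22 and 0.294. With 3 libraries per group this check cannot decide whether the numbers mark a pairing. With the replicate block 0 genes were called and 691 had an unadjusted p under 0.05 (0 and 611 with GC offsets and the block). In the block fit Pik3c3 was at -2.18 (adjusted p = 0.685, edgeR). With 3 libraries per group, genes near 10 CPM rest on few counts, and a p that misses the threshold does not show equal levels.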
